A study of Mus musculus with 18 samples.

Results

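Plasminogen activators, the urokinase receptor and related serpins were examined in MPC3, a mouse prostate cancer cell line, after knockdown of Rnf185. The 6 genes were chosen by symbol (Plau, Plat, Plaur, Serpine2, Serpinb2 and Serpinf1) and each symbol was mapped to 1 Ensembl identifier among the 47643 genes of the deposited count table. All 6 passed the filter on low counts, as did 14309 genes in all. Serpinf1 was higher with both hairpins and stood above control in all 12 hairpin libraries. Plat passed the test with shRNF185.1 and not with shRNF185.3, and the hairpins differed in its level. Both of these Plat calls were lost without batch 1 and without batch 3. The other 4 genes did not pass the threshold in any of the 3 comparisons.

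Plasminogen is made mainly by the liver and circulates as an inactive precursor, and cells that need plasmin for matrix breakdown or migration make the activators themselves. Urokinase (Plau) works mostly at the cell surface, held by its receptor (Plaur), while tissue plasminogen activator (Plat) is best known for dissolving fibrin. Serpins of the E and B clades trap the activators in a covalent complex that cells then take up through endocytic receptors. Serpinf1 encodes pigment epithelium-derived factor (PEDF), a secreted member of the serpin fold that does not inhibit proteases and is known for blocking the growth of blood vessels.

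The series compares MPC3 cells in which Rnf185, the gene of a ubiquitin ligase in the membrane of the endoplasmic reticulum, was lowered by a short hairpin RNA with control cells, and its title concerns collagen expression, migration and metastatic potential. The control group carries plko in its sample titles, and the hairpin groups are named shRNF185.1 and shRNF185.3. Each of the 3 groups holds 6 libraries of polyadenylated RNA, 2 in each of 3 batches. The labels do not say whether the libraries came from separate cultures, whether the cells were a pool or 1 clone, what the control vector carries, or how long after transfer of the hairpin RNA was taken. The p-values therefore measure the spread between these libraries, which may be technical. Both hairpin groups were compared with the same 6 control libraries.

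Libraries held 22027395 to 43379662 counts, and a floor of 3 counts corresponds to 0.0701 to 0.133 CPM, the count scaled to library size that the authors deposited. Rnf185 itself fell from 33.6 to 38.4 CPM in the control libraries to 5.19 to 6.80 CPM in the hairpin libraries, and no library went against its label. Of the markers of prostate epithelium, Krt8 and Krt18 were abundant while Epcam (at most 7 counts in a library) and Krt5 (at most 3) were near 0. In bulk RNA, fewer cells of a type and less RNA per cell cannot be told apart.

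Levels were compared between genes as deposited CPM per kilobase of exon, on which scale Serpine2, the gene of protease nexin 1, was the highest of the 6 genes in every group. In the control, shRNF185.1 and shRNF185.3 groups it averaged 57.7 ± 13.2, 68.4 ± 14.4 and 69.6 ± 8.32 CPM per kilobase (SD over 6 libraries), above 93.5% of the genes tested in control. Plaur, Plat and Plau followed with 23.3 ± 4.46, 18.9 ± 3.57 and 16.1 ± 4.25 CPM per kilobase in control, and these neighbours did not differ beyond their spread. With shRNF185.1 Plat stood at 24.9 ± 2.53, Plaur at 19.6 ± 3.37 and Plau at 12.8 ± 1.56 CPM per kilobase, so that Plat came before Plaur with overlapping spreads and Plau lay below both. With shRNF185.3 Plaur (19.5 ± 1.98) and Plat (19.4 ± 1.83) were level, and Plau (13.2 ± 2.21) was again below them. Serpinf1 came next in each group, and Serpinb2, the gene of plasminogen activator inhibitor 2, last. In control the 2 activators and the receptor were therefore at similar levels, above 75.7% (Plau) to 82.9% (Plaur) of the genes tested. Plau had the lowest mean of these 3 genes in every group, control included, so its place among them did not change with either hairpin. Serpine2 was the most abundant of the 3 serpins among the 6 genes.

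**Figure D1:**
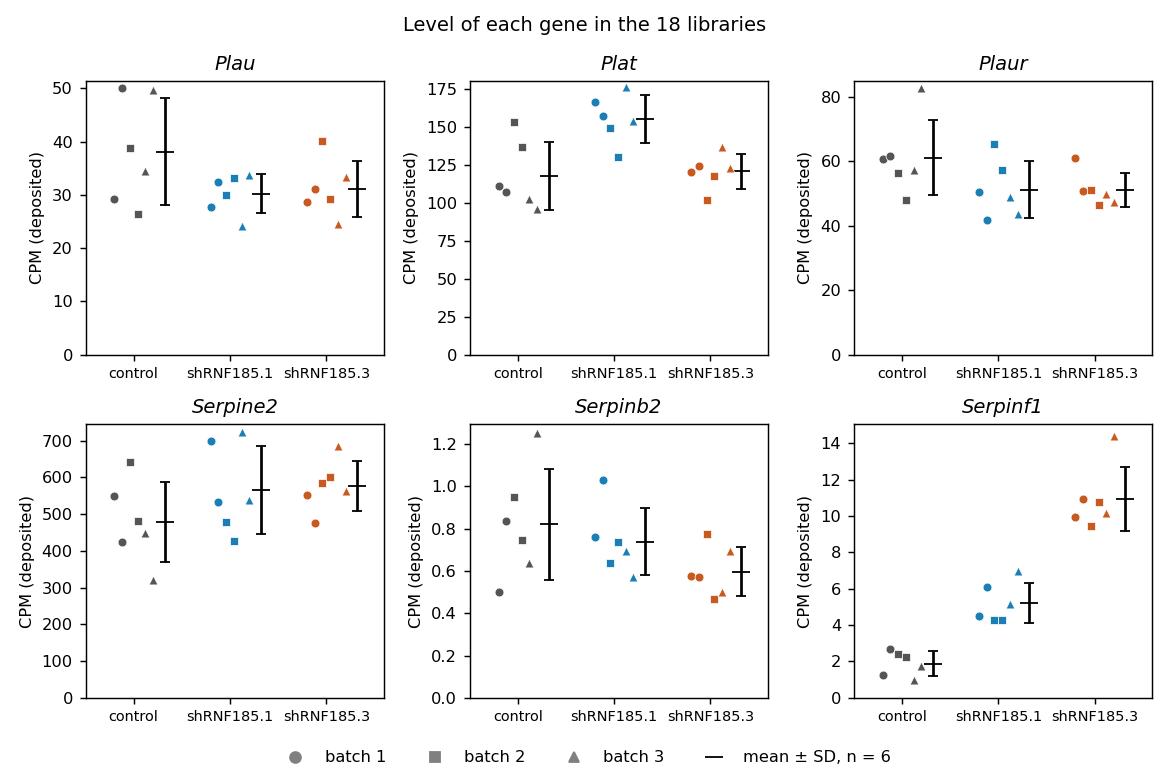
Deposited CPM (y axis, from 0) of the 6 genes in each of the 18 libraries, by group (x axis) and batch (marker shape), with the mean and SD of 6 libraries beside the points. Serpinf1 is the gene whose groups do not overlap, at 0.959 to 2.68 CPM in control, 4.26 to 6.99 CPM with shRNF185.1 and 9.43 to 14.4 CPM with shRNF185.3.

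A gene is called here, or said to pass, rise or fall, when its p from edgeR's quasi-likelihood test, adjusted over the 14309 genes tested, is under 0.05. With shRNF185.1, 2 of the 6 genes were called, Plat and Serpinf1, against 28.9% of all genes tested, and both were higher, against 14.6% of all genes called higher. With shRNF185.3, 1 of the 6 was called, Serpinf1, against 27.3% of all genes. Between the hairpins, Serpinf1 was called higher and Plat lower with shRNF185.3, against 14.7% of all genes called. Counts of 1 or 2 among 6 genes are too small to be set apart from the shares of all genes. The number of members called is therefore not a result about the group. No member was called lower against control with either hairpin by edgeR, DESeq2 or limma-voom. At an unadjusted p under 0.05, edgeR gave 2 lower with shRNF185.1 (Plau and Plaur) and 2 with shRNF185.3 (Plaur and Serpinb2). In either direction, 4 and 3 of the 6 genes had such a p, beside 5629 and 5517 of all 14309 genes tested. The median log2 fold change of the 6 genes was 0.05 with shRNF185.1 and −0.11 with shRNF185.3, beside −0.02 and −0.02 over all genes tested.

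**Figure D2:**
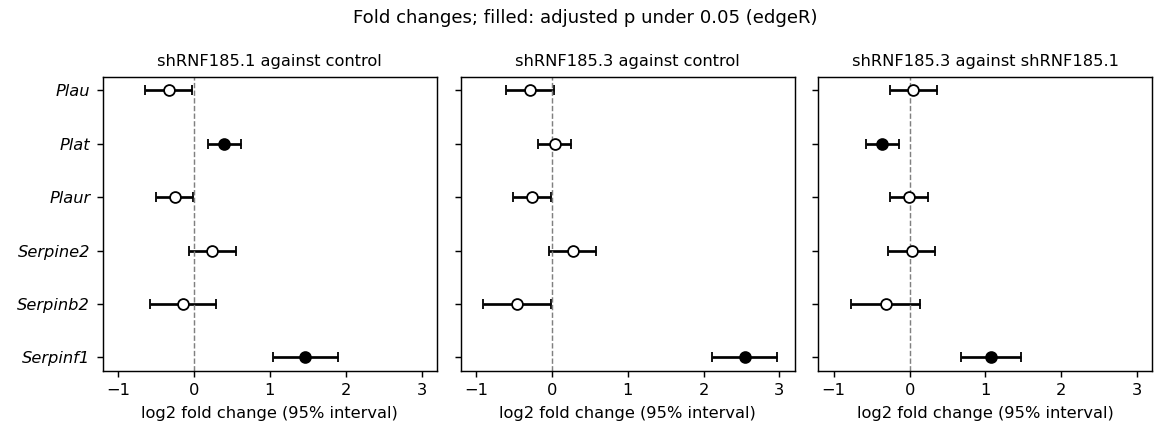
Log2 fold change (x axis) with its 95% interval for each of the 6 genes in the 3 comparisons, from the fit over all genes. Filled points passed an adjusted p of 0.05 in edgeR: Serpinf1 in all 3 panels, at 1.47, 2.54 and 1.07, and Plat in the first and last, at 0.40 and −0.36.

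The activators are described first. Plau (ENSMUSG00000021822, chr14:20836660-20843385 on the plus strand of GRCm38, 2367 exonic bases in GENCODE M21) encodes urokinase. Its level ranged from 26.4 to 50.1 CPM in the control libraries with a median of 36.7, from 24.2 to 33.7 CPM with shRNF185.1 (median 31.2) and from 24.6 to 40.1 CPM with shRNF185.3 (median 30.2). The groups overlapped, and the control libraries were the most scattered, with a coefficient of variation of 26.4% beside 12.2% and 16.8%. Against control, shRNF185.1 gave a log2 fold change of −0.33 (SE 0.15, 95% interval −0.64 to −0.02, edgeR adjusted p 0.0998) and shRNF185.3 of −0.29 (interval −0.60 to 0.02, adjusted p 0.162). The hairpins differed by 0.05 (interval −0.26 to 0.36, adjusted p 0.906). Plau passed the threshold with shRNF185.1 when batch 2 was left out (−0.47, adjusted p 0.0453) and when control replicate 4, the lowest control library, was left out (−0.42, adjusted p 0.0282).

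Plat (ENSMUSG00000031538, chr8:22757727-22782844 on the plus strand, 6241 exonic bases) encodes tissue plasminogen activator. Its level ranged from 95.7 to 153 CPM in control with a median of 109, from 130 to 176 CPM with shRNF185.1 (median 156) and from 102 to 137 CPM with shRNF185.3 (median 122). With shRNF185.1, 4 of 6 libraries lay above the highest control library, while the 2 highest control libraries were those of batch 2, at 153 and 137 CPM. Plat rose with shRNF185.1 by 0.40 on the log2 scale (SE 0.10, interval 0.18 to 0.62, edgeR adjusted p 0.00667), and the value with shRNF185.3 was 0.04 (interval −0.18 to 0.26, adjusted p 0.82). The difference between the hairpins was −0.36 (SE 0.10, interval −0.58 to −0.14, adjusted p 0.0233), with 5 of 6 shRNF185.3 libraries below the lowest shRNF185.1 library. That difference was −0.40, −0.35 and −0.34 within batches 1, 2 and 3, so its size was alike in each. It missed the threshold with the replicate number as a block (adjusted p 0.0578), with the libraries of a group and batch summed (adjusted p 0.125) and without shRNF185.1 replicate 5 (−0.32, adjusted p 0.0532), shRNF185.3 replicate 3 (−0.32, adjusted p 0.0569), batch 1 (−0.34, adjusted p 0.238) or batch 3 (−0.37, adjusted p 0.0508).

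The receptor is Plaur (ENSMUSG00000046223, chr7:24462484-24475968 on the plus strand, 2617 exonic bases), a lipid-anchored protein that concentrates urokinase at the cell surface. Its level ranged from 47.9 to 82.8 CPM in control with a median of 58.9, from 41.8 to 65.4 CPM with shRNF185.1 (median 49.6) and from 46.4 to 60.9 CPM with shRNF185.3 (median 50.2). The groups overlapped, and 2 libraries with either hairpin were below the lowest of the control group. On the log2 scale each hairpin gave −0.26 (SE 0.12, intervals −0.50 to −0.01 and −0.51 to −0.01, edgeR adjusted p 0.119 and 0.118), and the hairpins differed by 0.00 (interval −0.25 to 0.25, adjusted p 0.995). The intervals of both fold changes lie just below 0 although neither passed after adjustment. With shRNF185.1 the gene passed without batch 2 (−0.51, adjusted p 0.00577), control replicate 4 (−0.32, adjusted p 0.048) or shRNF185.1 replicate 3 (−0.34, adjusted p 0.0356), and with shRNF185.3 without control replicate 4 (−0.32, adjusted p 0.0485).

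Among the inhibitors, Serpine2 (ENSMUSG00000026249, chr1:79794197-79861180 on the minus strand, 8287 exonic bases) encodes a cell-associated inhibitor of thrombin, urokinase and tissue plasminogen activator. Its level ranged from 321 to 641 CPM in control with a median of 466, from 427 to 725 CPM with shRNF185.1 (median 535) and from 475 to 686 CPM with shRNF185.3 (median 574), and the groups overlapped. On the log2 scale shRNF185.1 differed from control by 0.24 (SE 0.15, interval −0.07 to 0.55, edgeR adjusted p 0.234) and shRNF185.3 by 0.27 (interval −0.04 to 0.58, adjusted p 0.183). The hairpins differed by 0.03 (interval −0.28 to 0.34, adjusted p 0.944). With shRNF185.1 the gene passed without batch 2, at 0.52 (adjusted p 0.022).

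Serpinb2 (ENSMUSG00000062345, chr1:107511423-107535478 on the plus strand, 2349 exonic bases) encodes an inhibitor of urokinase that is largely kept inside the cell. It was near the limit of the data, with 12 to 40 counts in a library and mean levels of 0.821 ± 0.264, 0.739 ± 0.158 and 0.597 ± 0.117 CPM in the control, shRNF185.1 and shRNF185.3 groups (SD over 6 libraries). The groups overlapped. The fold change was −0.14 on the log2 scale for shRNF185.1 (SE 0.21, interval −0.57 to 0.29, edgeR adjusted p 0.648) and −0.46 for shRNF185.3 (SE 0.21, interval −0.90 to −0.01, adjusted p 0.121), and the hairpins differed by −0.31 (interval −0.77 to 0.14, adjusted p 0.421). Its values are less certain than those of the other members, because 12.4% of its exonic bases are also exonic in Serpinb10 on the same strand and 9.0% of its 75-base windows occur in that gene.

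Serpinf1 (ENSMUSG00000000753, chr11:75409769-75422701 on the minus strand, 2359 exonic bases) was the member with the largest fold changes. Its level was 0.959 to 2.68 CPM in the control libraries (median 2.0, 27 to 96 counts), 4.26 to 6.99 CPM with shRNF185.1 (median 4.81, 111 to 195 counts) and 9.43 to 14.4 CPM with shRNF185.3 (median 10.5, 223 to 373 counts). Every shRNF185.1 library lay above every control library, and every shRNF185.3 library above every shRNF185.1 library. Groups that do not overlap in this way were found for 12.8% of all genes with shRNF185.1, 13.3% with shRNF185.3 and 8.25% between the hairpins.

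Serpinf1 rose 2.77-fold with shRNF185.1 (95% interval 2.06 to 3.72; log2 fold change 1.47, SE 0.20, edgeR adjusted p 2.47e-05). It rose 5.82-fold with shRNF185.3 (interval 4.34 to 7.81; log2 fold change 2.54, SE 0.20, adjusted p 4.6e-08). The level with shRNF185.3 was 2.10 times that with shRNF185.1 (interval 1.60 to 2.76; log2 difference 1.07, SE 0.19, adjusted p 0.000569), while Rnf185 itself differed between the hairpins by a factor of 0.999 (interval 0.895 to 1.12). In control Serpinf1 stood above 19.5% of the genes tested per kilobase, with shRNF185.1 above 32.6% and with shRNF185.3 above 46.9%. It thus went from a low to a middling transcript, and remained below Plau per kilobase in every group.

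The promoter regions are shown because Serpinf1 was the only member that passed with both hairpins, and Plaur and Serpinb2 serve for comparison. Sequences are from RefSeq on GRCm38.p6, in which 4 of the 6 members were matched (Plaur, Serpine2, Serpinb2 and Serpinf1). Each line gives, on the gene's strand, the bases before the start that lie outside exons. Capitals mark matches, on either strand, to 3 sets of letters: TGANTCA, the core that AP-1 factors bind, then GGGCGG, known as a GC box, and last TATAAA, the classical core element of many regulated promoters.
Serpinf1, chr11:75422702-75422873, minus strand: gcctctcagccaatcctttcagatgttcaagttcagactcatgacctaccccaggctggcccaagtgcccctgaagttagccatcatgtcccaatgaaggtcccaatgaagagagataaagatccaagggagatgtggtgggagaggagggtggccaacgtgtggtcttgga
Plaur, chr7:24462233-24462482, plus strand: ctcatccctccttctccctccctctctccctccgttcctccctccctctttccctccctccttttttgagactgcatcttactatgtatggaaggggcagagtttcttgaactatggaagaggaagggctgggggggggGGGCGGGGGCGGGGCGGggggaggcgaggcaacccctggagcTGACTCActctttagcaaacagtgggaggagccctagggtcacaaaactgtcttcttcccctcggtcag
Serpinb2, chr1:107511173-107511422, plus strand: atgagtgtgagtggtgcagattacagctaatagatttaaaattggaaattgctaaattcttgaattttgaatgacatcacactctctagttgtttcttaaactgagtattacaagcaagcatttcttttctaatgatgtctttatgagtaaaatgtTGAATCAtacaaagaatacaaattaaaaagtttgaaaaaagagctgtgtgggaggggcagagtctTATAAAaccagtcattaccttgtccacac

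In the 250 bases before the start, Serpinf1 held 0 matches to any of the 3 motifs. Plaur held 1 match to TGANTCA and 3 to GGGCGG, of which the second and the third share a base. Serpinb2 held 1 match to TGANTCA and 1 to TATAAA, and Serpine2 held 6 matches to GGGCGG, as counted with overlaps. Over 32851 promoters of the same length, 6.75% held TGANTCA, 32.7% GGGCGG and 12.4% TATAAA. These matches describe the letters in this window only.

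The hairpin effects were then compared between the batches, each of which holds 2 libraries of every group. Serpinf1 was higher than control within each batch, on the log2 scale by 1.39, 0.86 and 2.08 in batches 1, 2 and 3 for shRNF185.1 and by 2.36, 2.08 and 3.09 for shRNF185.3 (ratio of mean CPM plus 0.1). The other members were less even. With shRNF185.1, Plat differed from control by 0.57, −0.05 and 0.73, Plau by −0.40, −0.04 and −0.54, Plaur by −0.41, 0.23 and −0.60, and Serpine2 by 0.34, −0.31 and 0.71. In all 4 genes batches 1 and 3 went one way, and batch 2 was near 0 or went the other way. With shRNF185.3 the same values were 0.17, −0.40 and 0.39 for Plat, −0.41, 0.09 and −0.54 for Plau, −0.13, −0.10 and −0.53 for Plaur, and 0.08, 0.08 and 0.70 for Serpine2. For Serpinb2 they were −0.18, −0.40 and −0.59, and its values with shRNF185.1 were 0.38, −0.27 and −0.51.

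**Figure D3:**
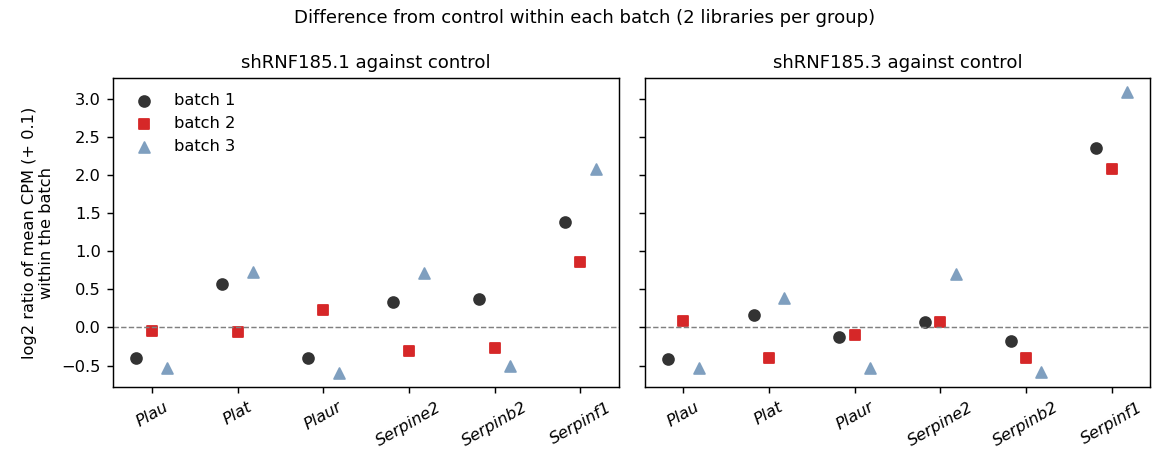
Log2 ratio of mean CPM (plus 0.1) in each hairpin group to control within each batch (y axis) for the 6 genes (x axis), with 2 libraries per group in each point. Batch 2 (red squares) lies near 0 or on the other side of 0 from batches 1 and 3 for Plat, Plaur, Plau and Serpine2 with shRNF185.1, whereas Serpinf1 is above 0 in every batch.

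The difference of batch 2 from the mean of batches 1 and 3 was tested in edgeR over all genes, a comparison added after the values were seen. Batch 2 was singled out from these same values, so the p-values of the members describe them and add no support. With shRNF185.1 it was −0.71 on the log2 scale for Plat (SE 0.12, adjusted p 0.0021), 0.73 for Plaur (SE 0.19, adjusted p 0.0186) and −0.84 for Serpine2 (SE 0.25, adjusted p 0.0351). These 3 of 6 members stand beside 19.6% of all genes called in the same test. Serpinf1 (−0.91, adjusted p 0.119), Plau (0.43, adjusted p 0.391) and Serpinb2 (−0.22, adjusted p 0.79) did not pass. With shRNF185.3, where 2.21% of all genes were called, Plat was called at −0.68 (SE 0.12, adjusted p 0.0157) and the other 5 were not, with adjusted p from 0.363 to 0.991. Both tests use the same control libraries, and the 2 control libraries of batch 2 were the highest 2 of the 6 for Plat.

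Leaving out batch 2 raised the number of members called with shRNF185.1 from 2 to 5, with Plat, Serpine2 and Serpinf1 higher and Plau and Plaur lower. Over all genes the number called with shRNF185.1 also rose, from 4141 of 14309 to 5119 of 14352. With shRNF185.3, leaving out batch 2 raised the number of members from 1 to 2, with Plat at 0.28 (edgeR adjusted p 0.00659) besides Serpinf1. Over all genes, 3906 calls with shRNF185.3 became 3849. Leaving out batch 1 or batch 3 left Serpinf1 alone among the members called with shRNF185.1, with Plat at 0.32 (adjusted p 0.181) and 0.25 (adjusted p 0.158). Over all genes, 2207 and 2926 were then called with shRNF185.1. The deposited values had already been adjusted for batch, and the labels do not say what the batches stand for.

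Markers of the labelled cell type and of other cell types were set beside the rise of Serpinf1. For prostate epithelium, 6 of the 8 markers reported were tested, and the summed level of the 8 was 1513 to 1828 CPM in control, 962 to 1244 CPM with shRNF185.1 and 1031 to 1110.1 CPM with shRNF185.3. Krt8, Krt18 and Cdh1 fell with both hairpins, Krt14 fell with shRNF185.1 (edgeR adjusted p 0.0283, lost on leaving out any of 5 single libraries, batch 1 or batch 3), and Trp63 rose with both. The call of Trp63 with shRNF185.1 was lost without shRNF185.1 replicate 1 (adjusted p 0.0581), batch 1 or batch 3, and that with shRNF185.3 without batch 2. For fibroblasts, 5 of 7 were tested, and the sums, mostly Vim, were 3079 to 4090, 3663 to 4229 and 3792 to 4425 CPM. Col1a1 and Pdgfrb rose with both hairpins, Pdgfra rose with shRNF185.3 and Dcn fell with shRNF185.1, while the fibroblast marker Thy1 stayed at or below 2 counts in each library. Between the hairpins, 4 of these 5 were higher with shRNF185.3, as was Serpinf1: Dcn by 1.62 on the log2 scale (edgeR adjusted p 0.000672), Col1a1 by 0.90 (adjusted p 0.0379), Pdgfra by 0.46 (adjusted p 0.000193) and Pdgfrb by 0.23 (adjusted p 0.0441). Without any 1 of the batches 2 were called, Dcn and Pdgfra, and leaving out 1 library ended the call of Col1a1 (8 of 18 libraries) or of Pdgfrb (12 of 18). Of the epithelial markers, Krt18 was 0.25 lower with shRNF185.3 than with shRNF185.1 (adjusted p 0.00331, lost without batch 1 or 2). Leukocyte markers were tested for 2 of 7 genes (summed level 40.9 to 59.9, 44.7 to 71.4 and 52.0 to 65.4 CPM), with Ptprc at no more than 3 counts in a library, and Cd68 fell by 0.68 with shRNF185.1 (edgeR adjusted p 0.0117, lost without batch 1). Endothelial markers were tested for 1 of 6, with a summed level of at most 1.70 CPM. The part of epithelial and fibroblast markers in the rise of Serpinf1 was not tested.

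The 2 genes with the pattern most like that of Serpinf1 over the 18 libraries, by the root-mean-square difference of centred log2 (CPM plus 0.5), were Speg and Col1a1 among 10427 genes compared. Speg, a kinase gene of striated muscle, differed by 0.276 and averaged 4.30 ± 0.980, 8.74 ± 1.5 and 18.2 ± 3.2 CPM in the 3 groups, in the same order as above (SD over 6 libraries). Col1a1, a chain of type I collagen and one of the fibroblast markers above, differed by 0.315, with 80.0 ± 25.5, 196 ± 87.8 and 365 ± 126 CPM. The median difference over all genes compared was 1.01, beside 0.990 for a gene with the same level in every library. The measure depends on the size of a change as well as on its pattern.

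The genes around these 6 in the plasminogen system were taken from 8 lists, of which 47 symbols are reported and 33 were tested. With shRNF185.1, 13 were higher and 6 lower, and with shRNF185.3, 13 were higher and 2 lower, beside 14.6% higher and 14.3% lower, and 14.2% higher and 13.1% lower, over all genes. Their median log2 fold change was 0.11 and 0.13, beside −0.02 in each comparison over all genes. Between the hairpins 6 were higher and 2 lower with shRNF185.3, beside 7.72% and 6.94% of all genes, and without batch 2 these counts became 3 and 0. They were 3 and 1 if batch 1 was omitted, 5 and 4 if batch 3 was, and 6 and 4 in DESeq2.

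**Figure D4:**
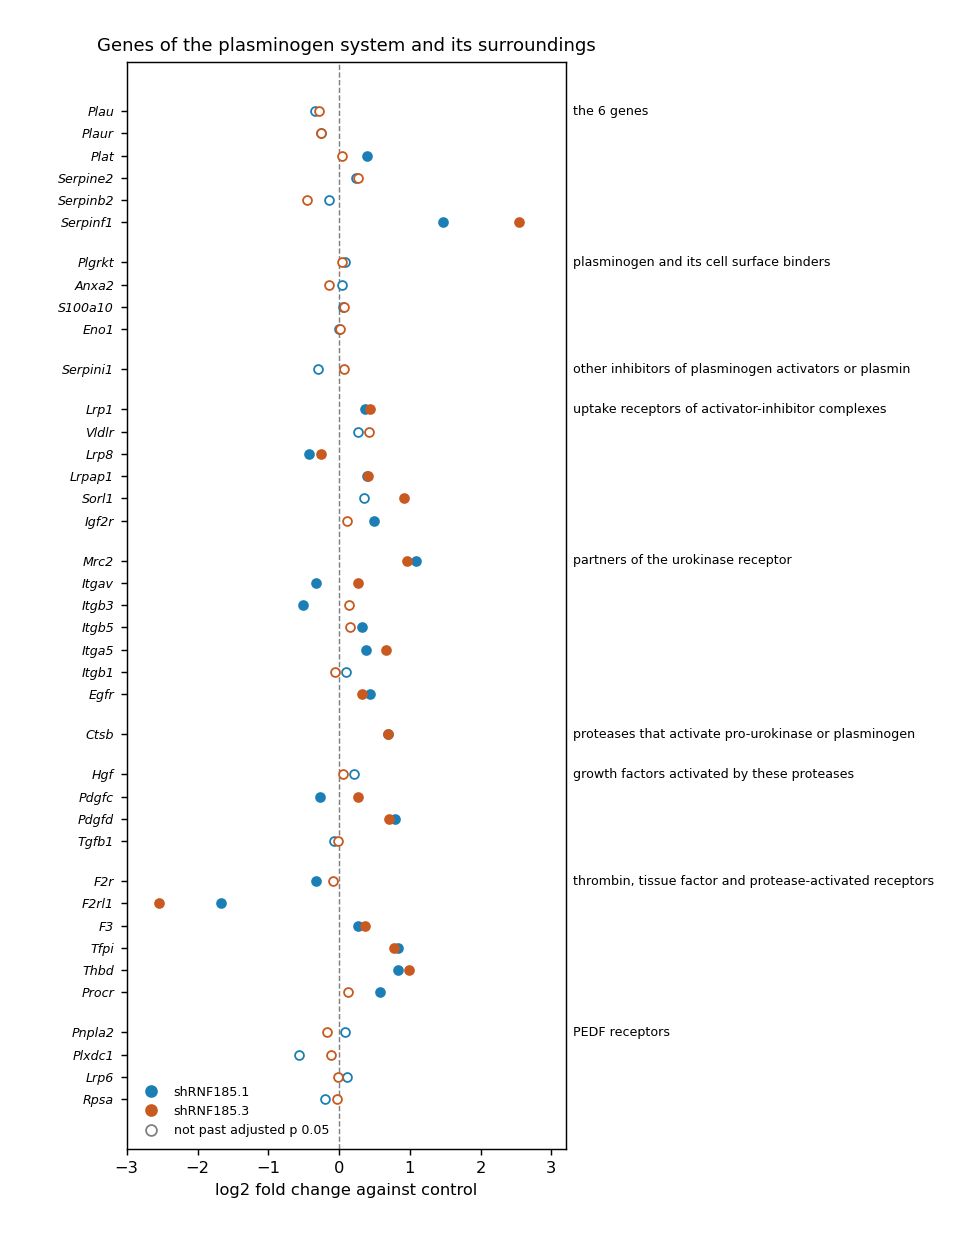
Log2 fold change against control (x axis) of the 6 genes and of the tested genes reported from the 8 lists (y axis), for shRNF185.1 in blue and shRNF185.3 in orange. Filled points passed an adjusted p of 0.05 in edgeR; Serpinf1 lies farthest to the right, at 1.47 and 2.54, and F2rl1 farthest to the left, at −1.67 and −2.55.

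The transcript of the substrate was not detectable: Plg, the gene of plasminogen, had 0 counts in all 18 libraries. Its RNA level was thus under the floor of 0.0701 to 0.133 CPM. Plasminogen protein was not measured. Of 4 tested genes that hold plasminogen at the surface (Plgrkt, Anxa2, S100a10 and Eno1), 0 passed with either hairpin in edgeR, DESeq2 or limma-voom. In edgeR against control, 0 of the 4 had an unadjusted p under 0.05, beside 5629 and 5517 of all 14309 genes. Of the proteases that activate pro-urokinase or plasminogen, Ctsb, the lysosomal cathepsin B, was the 1 gene tested of 5 listed. It rose by 0.69 with each hairpin (SE 0.08, edgeR adjusted p 2.68e-06 and 2.86e-06), from 316 ± 30.8 CPM to 511 ± 54.9 and 509 ± 43.8 CPM (SD, n = 6 each). St14, Hpn and F12 had at most 3 counts in a library.

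Of the other inhibitors of these proteases, 1 of the 6 reported was tested, Serpini1, the gene of neuroserpin, which inhibits tissue plasminogen activator and is best known from neurons. Its mean level in the control, shRNF185.1 and shRNF185.3 groups was 1.84 ± 0.546, 1.49 ± 0.382 and 1.92 ± 0.404 CPM (SD over 6 libraries), and it did not pass in any of the 3 comparisons (edgeR adjusted p 0.326, 0.848 and 0.331).

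Receptors that take up complexes of activator and inhibitor were tested for 6 of the 7 genes reported. With shRNF185.1, 3 rose (Lrp1, Lrpap1 and Igf2r) and 1 fell (Lrp8), and with shRNF185.3, 3 rose (Lrp1, Lrpap1 and Sorl1) and 1 fell (Lrp8). Lrpap1, a chaperone of such receptors, rose by 0.40 with each hairpin (SE 0.06, edgeR adjusted p 2.66e-05 and 2.41e-05), and Lrp1, the main uptake receptor, by 0.36 and 0.43 (SE 0.09, adjusted p 0.00478 and 0.00128). Lrp8 fell by 0.43 and 0.25. Between the hairpins, Sorl1 was 0.56 higher (adjusted p 0.0339) and Igf2r 0.38 lower (adjusted p 0.0091) with shRNF185.3. Leaving out 1 library ended the calls of Lrp8 with shRNF185.3 (6 of 18 libraries) and of the Sorl1 difference (9 of 18), with adjusted p up to 0.0792 and 0.0817. Leaving out batch 1 ended both of these, Lrp1 and Lrp8 with shRNF185.1 and the Igf2r difference, batch 2 the Sorl1 and Igf2r differences, and batch 3 those of Lrp1 with shRNF185.1 and Lrp8 with shRNF185.3.

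Partners of the urokinase receptor were tested for 7 of 8 genes. With shRNF185.1, 4 rose (Mrc2, Itga5, Itgb5 and Egfr) and 2 fell (Itgav and Itgb3), and with shRNF185.3, 4 rose (Mrc2, Itga5, Itgav and Egfr) and 0 fell in edgeR, DESeq2 or limma-voom or at an unadjusted p under 0.05. Mrc2, an endocytic collagen receptor that binds Plaur, rose by 1.09 and 0.97 (SE 0.17 each, edgeR adjusted p 0.000108 and 0.000381), from 12.4 ± 3.83 CPM to 26.6 ± 4.48 and 24.3 ± 4.61 CPM (SD, n = 6 each). The integrin chain Itga5 rose by 0.38 and 0.66 and Egfr by 0.44 and 0.32. Itgav, the chain of vitronectin receptors, fell by 0.33 with shRNF185.1 (adjusted p 0.000948) and rose by 0.27 with shRNF185.3 (adjusted p 0.00424), a difference of 0.60 (SE 0.07, adjusted p 4.24e-06). Its partner Itgb3 gave −0.51 (adjusted p 0.0439) and 0.14, a difference of 0.65 (adjusted p 0.0213), and Itga5 differed by 0.28 (adjusted p 0.00941). The Itgb3 call with shRNF185.1 was lost on leaving out any of 12 single libraries or batch 1 or 2, and its difference between hairpins without shRNF185.1 replicate 2 (adjusted p 0.0539) or replicate 4 (adjusted p 0.0541) or any batch. Of 14 other settings, those without a batch included, 8 ended the Itgb3 call with shRNF185.1. Among them were a batch covariate (edgeR adjusted p 0.0677) and summed libraries (edgeR adjusted p 0.08). Without batch 1 or 2 Itgav with shRNF185.3 and the Itga5 difference also missed the threshold, as did Itgb5 without batch 1 and Egfr with shRNF185.3 without batch 3.

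Growth factors that plasmin or the activators process were tested for all 4 listed. Pdgfd, which urokinase can activate, rose by 0.79 and 0.70 (SE 0.13 and 0.14, edgeR adjusted p 0.000205 and 0.000665), at 2.3 ± 0.307, 3.98 ± 0.659 and 3.73 ± 0.644 CPM in the 3 groups (SD, n = 6 each). Pdgfc, a substrate of Plat, fell by 0.27 with shRNF185.1 (adjusted p 0.00622) and rose by 0.27 with shRNF185.3 (adjusted p 0.00687), so that the hairpins differed by 0.54 (SE 0.07, adjusted p 2.67e-05). The call of Pdgfc with shRNF185.1 was lost without batch 3, and that with shRNF185.3 without batch 1 or 2. Hgf and Tgfb1 did not pass.

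Genes of thrombin, tissue factor and the protease-activated receptors were tested for 6 of 7. With shRNF185.1, 4 rose (F3, Tfpi, Thbd and Procr) and 2 fell (F2r and F2rl1), and with shRNF185.3, 3 rose (F3, Tfpi and Thbd) and 1 fell (F2rl1). F2rl1, which encodes the protease-activated receptor PAR2, fell by 1.67 (SE 0.27, edgeR adjusted p 0.000111) and 2.55 (SE 0.29, adjusted p 2.91e-06), from 2.13 to 3.35 CPM in control to at most 1.12 CPM in shRNF185.1 libraries and 0.623 CPM in shRNF185.3 libraries. Thbd, the cofactor thrombomodulin, rose by 0.84 and 0.98, and Tfpi, the inhibitor of tissue factor, by 0.84 and 0.77. F3, tissue factor, rose by 0.26 and 0.36. F2r, the main thrombin receptor, was 0.23 higher with shRNF185.3 than with shRNF185.1 (SE 0.04, adjusted p 0.00117, lost without batch 2). Procr with shRNF185.1 missed the threshold without batch 1.

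Of proteins reported to bind PEDF, 4 of 5 genes were tested (Pnpla2, Plxdc1, Lrp6 and Rpsa). None of the 4 passed against control with either hairpin in edgeR, DESeq2 or limma-voom. With each hairpin 1 of the 4 had an unadjusted p under 0.05 in edgeR, beside 5629 and 5517 of all 14309 genes. Pnpla2 was 0.26 lower with shRNF185.3 than with shRNF185.1 (edgeR adjusted p 0.035), a call lost on leaving out any of 7 single libraries, batch 2 or batch 3.

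Other serpins were taken as every other gene symbol that starts with Serpin, of which 64 are reported and 15 were tested. With shRNF185.1, 8 were higher and 2 lower, beside 14.6% and 14.3% of all genes, and with shRNF185.3, 5 were higher and 1 lower, beside 14.2% and 13.1%. The 5 higher with shRNF185.3 were Serpina3f, Serpina3g, Serpina3h, Serpinh1 and Serpinb1a, and the 1 lower was Serpinb6a (edgeR adjusted p 0.0238, lost on leaving out either of 2 single libraries, batch 2 or batch 3). The count of 5 became 4 in DESeq2 and limma-voom and 2 without batch 1 or batch 3. Serpinf1 had a larger fold change with shRNF185.3 than any of these 5. With shRNF185.1 Serpina3h (2.21, SE 0.27, edgeR adjusted p 5.06e-06), Serpina7, Serpina3g, Serpina3f and Serpinh1 each had a larger one than Serpinf1. Serpina7, named outside the rule and counted among the 8, gave 2.20 (SE 0.55, adjusted p 0.00545, lost without batch 1 or 3) from 1 to 10 counts in a control library. Its control libraries alone would not have met the filter on low counts. It was thus tested through hairpin libraries, and its call adds no support. Serpinh1, the collagen chaperone of the endoplasmic reticulum, rose by 1.63 and 0.80 (SE 0.22 each, adjusted p 1.67e-05 and 0.00992), from 5.71 ± 2.15 CPM to 17.7 ± 3.73 and 10.003 ± 2.3 CPM (SD, n = 6 each). Serpina3g rose by 1.81 and 1.5, Serpina3f by 1.64 and 1.12 and Serpina3h by 2.21 and 1.08, at means of at most 2.57 CPM. These 3 are uncertain, because 5.33% to 10.97% of their 75-base windows occur in neighbouring Serpina3 genes. The lowest values under other settings were 0.39 and 0.20 for Serpina3f and 0.65 and 0.23 for Serpina3h, as their levels were low. Both may have met the filter on low counts only through hairpin libraries, as Serpina7 did, which was not checked. Their calls therefore add no support either.

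At an unadjusted p under 0.05 in edgeR, 7 of the 15 other serpins were lower and 0 higher with shRNF185.3 than with shRNF185.1. Over all genes, 3689 of 14309 had such a p in either direction. After adjustment 3 were lower and 0 higher in edgeR, DESeq2 and limma-voom, beside 6.94% lower and 7.72% higher over all genes in edgeR. The 3 were Serpina3h (−1.13, adjusted p 0.00331), Serpinh1 (−0.83, adjusted p 0.0114) and Serpinb1a (−0.27, adjusted p 0.0462), the last named outside the rule. Serpinf1 went the other way, at 1.07. Without batch 1 none of the 3 was called in edgeR, without batch 2 Serpina3h alone of them was, and without batch 3 Serpina3h was not, while the Serpinb1a difference was also lost on leaving out any of 10 single libraries. Against control, Serpina3f with shRNF185.3 (adjusted p 0.0456) was lost in DESeq2 (adjusted p 0.0507), limma-voom (adjusted p 0.0795), limma on log2 (CPM plus 1), without the filter, with a replicate block, a batch covariate or summed libraries, without any 1 of the batches and on leaving out any of 10 single libraries. Serpina3f with shRNF185.1 was lost without batch 3, and with shRNF185.3 Serpina3h and Serpinh1 without batch 1 or 3. With shRNF185.1 limma-voom called 8 higher and 0 lower, and the 2 called lower in edgeR, Serpinb6a (adjusted p 0.0495) and Serpinb9b (adjusted p 0.0497), were also named outside the rule and were each lost on leaving out any of 13 single libraries.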

How the data were processed

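RNA was measured in 18 libraries of MPC3 cells, 6 per group, as single-end 75-base reads of polyadenylated RNA prepared with a strand-specific kit, per the labels' protocols. The submitters' processing notes name cutadapt 2.3, STAR 2.7.0d, RSEM 1.3.1 and the build mm10, without roles, and the gene annotation is not given in the sources used here. Counts and CPM were deposited by the authors in separate tables, both named for ComBat-Seq, an adjustment for batch, per the labels. Whether that adjustment was given the groups is not stated. The deposited counts were taken for expected counts, because 3998 values (0.466%) are not whole, and were rounded; the design had assumed whole counts and its test was kept. The deposited CPM are a scaled signal whose columns sum to 969986 to 1026394, and they are divided by exonic length where levels of genes are compared. Batch adjustment can shrink or shift differences between groups within a batch.

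Genes were filtered by filterByExpr (minimum count 10), leaving 14309, and tested with edgeR 4.0.16 in R 4.3.3: TMM scaling, 1 fit over the 18 libraries, quasi-likelihood F tests and Benjamini-Hochberg adjustment over the genes tested, with a gene called at an adjusted p under 0.05. Alternatives were DESeq2 1.42.0, limma-voom and limma 3.58.1 on log2 (CPM plus 1), other scalings and filters, a replicate block, a batch covariate, and leaving out libraries or batches. The scripts were tested on simulated data. Fold changes are log2 unless a factor is named. Depth, and so the floor of 3 counts, covers only the error of counting, as no molecular identifiers were used. Symbols matched 99.1% of identifiers, and gene positions come from GENCODE M21 (GRCm38). Over 45 pairs of libraries of the same group, a chi-square per gene of 7.64 to 84.4 showed no library entered in duplicate.

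The members and the lists were chosen with earlier results of these data known. All 6 members are named; from each list, genes called with both hairpins in the same direction (at most 4, by the smaller fold change) and genes called between the hairpins (at most 2) are named, and genes named to complete a small count fall outside this rule. Groups share replicate numbers in the labels, which were not taken to pair the libraries. All columns of the deposited tables were matched to samples. One listed gene, Klkb1, was not analysed here, and a few listed genes and markers are not reported here and are left out of the counts of their lists.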

Additional observations from a re-analysis of the deposited data

Results flagged for a closer look

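Of 90 groups of 6 libraries examined (30 genes in 3 groups), 7 held a library far from the other 5, where chance gives about 1 in 20 groups, or 4.5. Among the members, Plaur in shRNF185.3 replicate 1 stood at 5.93 log2 CPM with the next library at 5.67, and Serpinf1 in shRNF185.3 replicate 6 at 3.85 with the next at 3.45. Among the other genes named, Igf2r in shRNF185.3 replicate 5 stood at 8.28 log2 CPM (next 8.06), Egfr in shRNF185.1 replicate 5 at 5.85 (next 5.67) and F2r in shRNF185.1 replicate 1 at 6.30 (next 6.17). Itgav in control replicate 1 was low at 7.31 log2 CPM (next 7.64), and F2rl1 in shRNF185.1 replicate 6 at −2.61 (next −0.48), the latter at 0.164 CPM from 4 counts.

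The hairpins differed from each other, by edgeR's test at an adjusted p under 0.05, in 12 of the 30 genes examined. Over all genes tested the share was 14.7%. Being called between the hairpins was itself a reason for naming a gene, so this count was partly fixed in advance and is not a result. On the log2 scale of shRNF185.3 minus shRNF185.1, Serpinf1 differed by 1.07, Itgb3 by 0.65, Itgav by 0.60, Sorl1 by 0.56, Pdgfc by 0.54, Itga5 by 0.28 and F2r by 0.23. Lower values with shRNF185.3 were those of Serpina3h (−1.13), Serpinh1 (−0.83), Igf2r (−0.38), Plat (−0.36) and Pnpla2 (−0.26). These compare the same libraries that the report describes. Rnf185 was lowered alike by both hairpins.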

How the results depend on the processing

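Serpinf1 kept its direction and its call in all 3 comparisons under every alternative run, with log2 fold changes of 1.34 to 1.59, 2.41 to 2.67 and 0.98 to 1.17 on leaving out single libraries. Plat with shRNF185.1 was 0.32 without batch 1 (adjusted p 0.181) and 0.25 without batch 3. Plat with shRNF185.3 was −0.025 without batch 1 and −0.13 without batch 3, passed without batch 2 at 0.28, and ranged from −0.015 to 0.13 over single libraries left out. The Plat difference between the hairpins was −0.36 with the replicate block (adjusted p 0.0578), −0.34 without batch 1, −0.37 without batch 3, −0.36 with the libraries of a group and batch summed (adjusted p 0.125), and −0.41 to −0.32 over single libraries. Deviations from the group means correlated between groups at −0.0145 on average for libraries of the same number (18 pairs, −0.639 to 0.697), −0.436 where the batch was shared and the number differed (18 pairs) and 0.111 across batches (72 pairs), and the most correlated library of another group had the same number in 4 of 36 cases. Same-numbered libraries were thus more alike than the others of their batch, but not every pair correlated, and the numbers were not taken as a pairing. The replicate block gave 3811, 3578 and 1976 genes called, beside 4141, 3906 and 2098; it changed no other member's call. Plau with shRNF185.1 passed without batch 2 (−0.47) and ranged from −0.42 to −0.24 over single libraries. Plaur passed with shRNF185.1 without batch 2 (−0.51), with single-library ranges of −0.34 to −0.15 with shRNF185.1 and −0.32 to −0.15 with shRNF185.3. Serpine2 with shRNF185.1 passed without batch 2 (0.52). Differences between the hairpins near 0 changed sign: Plau without batch 2 (−0.0072; single libraries −0.037 to 0.11), Plaur with limma-voom (0.0070), limma on log2 (CPM plus 1) (0.0054), a mean count of at least 50 (0.0014) and without batch 2 (0.17; single libraries −0.060 to 0.080), and Serpine2 without batch 2 (−0.13; single libraries −0.044 to 0.11). Serpinb2 with shRNF185.1 was 0.078 without batch 3 and −0.27 to 0.023 over single libraries, and it had no value at a mean count of at least 50. The cause of these changes was not tested; leaving out a batch also leaves 4 libraries per group. Without batch 1, 2207, 2120 and 753 genes were called in the 3 comparisons, and 62.4% of the calls between the hairpins were higher, beside 52.7%. Without batch 3, 2501 were called with shRNF185.3. Without batch 2, 5119 were called with shRNF185.1 and 1208 between the hairpins. Single libraries left out gave 3692 to 4215, 3338 to 3995 and 1696 to 2283 genes called. For the other genes named, 55 values under other settings and 46 with single libraries left out lost the call, and 0 changed sign.

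Depth limits Serpinb2, Pdgfd, F2rl1 and the Serpina3 genes, whose counts were low, and Plg, at 0 counts. Batches and replicate numbers are known only by number, and no value within a single batch was tested because each holds 2 libraries per group.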

Other observations

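Within the 9 pairs of libraries that share a group and a batch, the library with the odd replicate number held the higher Serpine2 level in 8 pairs, and the higher Plat and Plaur levels in 7 pairs each. The library with the even number held the higher Serpinf1 level in 8 of 9 pairs, Plau in 7 and Serpinb2 in 5. Of all 14309 genes tested, 26.5% were higher on 1 side in at least 8 of the 9 pairs. Genes are not independent of each other, and whether this share is unusual was not tested. The labels do not say what the odd or even replicate number stands for.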
